A study of Mus musculus with 6 samples.

Results

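The immediate-early response (IER) and B-cell translocation gene (BTG) families gave 6 genes, Ier2, Ier3, Ier5, Ier5l, Btg1 and Btg2, which were taken by symbol from the 43432 genes listed for each library. All 6 were found, and all 6 received an adjusted p in each comparison. RNA-seq was performed on cortical neurons of wild-type C57BL/6 mouse embryos, both sexes pooled, taken at E16.5 and grown for 7 days in culture. In every group, the 0 h control included, the neurons had been silenced overnight with 1 μM tetrodotoxin (TTX, a sodium channel blocker) and 100 μM DL-AP5 (an NMDA receptor antagonist). The groups differed in the time in 55 mM KCl, which depolarizes the membrane: 0 h, 2 h or 6 h, with 2 biological replicates each and 6 libraries in all. The comparisons address which of these genes differ between these times in KCl. No library was taken between 0 h and 2 h, so a rise and fall within that time would be missed.

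Immediate-early genes are transcribed soon after a stimulus, from transcription factors that are already present in the cell, and their mRNAs are usually short-lived. IER2, IER5 and IER5L share an N-terminal domain and are known to bind the phosphatase PP2A, and IER5 brings PP2A to the heat-shock factor HSF1. IER3 carries the family name but is an unrelated stress-induced regulator of cell survival and ERK signalling. BTG1 and BTG2 are anti-proliferative proteins that bind the deadenylases of the CCR4-NOT complex and speed the shortening of poly(A) tails, and Btg2 is a p53 target that marks neurogenic progenitors in the developing cortex.

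All 6 genes are compact. Ier2, Ier5 and Ier5l have 1 exon, and Ier3, Btg1 and Btg2 have 2 exons. At most 2 exons are found in 9.72% of the 17306 protein-coding genes tested. On the GRCm38 build, Ier2 (ENSMUSG00000053560) lies on chromosome 8 at 84661331 to 84662852, minus strand, and Ier3 (ENSMUSG00000003541) on chromosome 17 at 35821684 to 35822923, plus strand. Ier5 (ENSMUSG00000056708) lies on chromosome 1 at 155096361 to 155099636 and Ier5l (ENSMUSG00000089762) on chromosome 2 at 30471537 to 30474219, both on the minus strand. Btg1 (ENSMUSG00000036478) lies on chromosome 10 at 96617006 to 96622809, plus strand, and Btg2 (ENSMUSG00000020423) on chromosome 1 at 134075170 to 134079120, minus strand. The gene spans ran from 1240 to 5804 bases, against a median of 23198 over the coding genes tested. The 3′ UTRs held between 0 (Ier2) and 11 (Btg1) copies of ATTTA, the core of AU-rich elements that are known to shorten mRNA life, against a median of 1. No member overlaps another annotated gene, and the estimated counts of all 6 were whole numbers in every library, so that the tables show no reads shared with a copy.

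The promoters are shown because the CRE and serum-response elements upstream of immediate-early genes are the known route from calcium entry to transcription. The RefSeq table (GRCm38.p6) held 5 of the 6 genes, without Ier2, and the 250 bases before the annotated start of 4 of them are printed 5′ to 3′. Capitals mark the letters searched on both strands: the full CRE TGACGTCA, its half-site TGACG, the AP-1 site TGANTCA, the TATA box TATAAA, the GC box GGGCGG and the CArG box.
Btg2, chr1:134079156-134079405, minus strand: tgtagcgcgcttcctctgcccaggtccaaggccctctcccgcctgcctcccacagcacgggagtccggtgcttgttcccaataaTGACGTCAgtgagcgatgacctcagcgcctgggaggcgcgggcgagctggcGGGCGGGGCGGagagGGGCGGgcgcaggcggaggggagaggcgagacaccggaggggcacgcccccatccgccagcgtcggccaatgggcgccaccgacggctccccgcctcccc
Btg1, chr10:96616751-96617000, plus strand: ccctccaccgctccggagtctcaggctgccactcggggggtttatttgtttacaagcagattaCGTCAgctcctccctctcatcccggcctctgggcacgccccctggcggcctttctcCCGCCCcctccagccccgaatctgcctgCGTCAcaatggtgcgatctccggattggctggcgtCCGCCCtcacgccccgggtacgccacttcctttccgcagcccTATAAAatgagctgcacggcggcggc
Ier3, chr17:35821463-35821712, plus strand: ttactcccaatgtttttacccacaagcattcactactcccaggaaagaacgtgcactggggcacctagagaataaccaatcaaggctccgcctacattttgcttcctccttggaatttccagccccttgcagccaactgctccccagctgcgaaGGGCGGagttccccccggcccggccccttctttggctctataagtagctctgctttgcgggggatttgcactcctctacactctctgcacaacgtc
Ier5l, chr2:30474200-30474449, minus strand: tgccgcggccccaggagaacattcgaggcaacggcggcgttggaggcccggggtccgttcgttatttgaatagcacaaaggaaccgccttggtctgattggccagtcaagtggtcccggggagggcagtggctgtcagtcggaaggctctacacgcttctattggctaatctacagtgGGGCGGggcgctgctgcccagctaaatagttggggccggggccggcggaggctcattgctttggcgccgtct
The full CRE was matched in Btg2, from 166 to 159 bases before its start, and in none of the other 4. It is found in 1.55% of the 32851 promoters of that length. The CRE half-site was matched at 2 places in Btg1 and at 2 in Btg2, both of the latter inside the full CRE, and is found in 17.8% of promoters. The TATA box was matched in Btg1 alone (12.4% of promoters), and the GC box in all 5 (32.7%). The AP-1 site (6.75%) and the CArG box (1.47%) were matched in none, which says only that these letters are not in these windows.

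The libraries held 25959298 to 28573067 estimated counts. The replicates at 2 h were farther apart than those at the other times, with an SD of the log2 difference between replicates of 0.429 against 0.246 at 0 h and 0.214 at 6 h over 12290 genes. Across these genes, the difference between the 2 h replicates followed GC content (Spearman rho = -0.735, genes not being independent replicates). The member transcripts ran from 43.1% GC (Btg1) to 63.8% (Ier5l). Neuron markers summed to 3591 to 3657 TPM at 0 h, 2959 to 3108 at 2 h and 3289 to 3426 at 6 h, with none of the 8 at 0. The lower sums followed Tubb3, at 1639 and 1679 TPM at 0 h and 834 and 989 TPM at 2 h. Without Tubb3 the sums were 1912 to 2018 TPM at 0 h, 1971 to 2274 at 2 h and 2623 to 2632 at 6 h, and by the adjusted p 5 of the 8 markers were higher at 2 h and 1 was lower (12.3% and 14.2% of all genes). At 6 h over 0 h 5 were higher and 2 lower (23.7% and 21.7%), with Gad1 and Gad2 called higher and Tubb3 called lower. Astrocyte markers summed to 508 to 547, 490 to 497 and 401 to 416 TPM, and microglia markers to 2.37 to 6.48 TPM over all libraries. The part of these shifts in the results was not tested, and in bulk RNA fewer cells of a type and less RNA per cell cannot be told apart.

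Ier2 gave the largest response of the 6 genes. Ier2 encodes a nuclear protein that regulates transcription. Its normalized counts (estimated counts divided by the size factor of the library) were 14.2 and 18.5 in the 0 h libraries, 105 and 183 in the 2 h libraries, and 58.9 and 69.9 in the 6 h libraries. The 3 groups did not overlap, with the 2 h libraries highest and the 6 h libraries between them and the controls. Ier2 rose 8.77-fold by 2 h (log2 fold change 3.13, SE 0.45, DESeq2 adjusted p = 8.64e-11) and was still 3.93-fold above 0 h at 6 h (1.97, SE 0.46, adjusted p = 7.90e-05). From 2 h to 6 h it fell by 1.16 on the log2 scale (SE 0.41, adjusted p = 0.0114).
Calls required an adjusted p of 0.05 or less together with a change above 2-fold. An adjusted p was given to 16840 genes at 2 h over 0 h, 17277 at 6 h over 0 h and 16404 at 6 h over 2 h. The late response class, with 6 h called above both other times, held 612 genes. None of the 6 members was among them, which says little, since the class is a small part of the genes tested. The early response class, with a called rise by 2 h and a called fall from 2 h to 6 h, was smaller still, at 83 genes. Of the 6 members, Ier2 alone was in it. The fall from 2 h rests on replicate 2 at 2 h and on each 6 h library: it was 0.69 with an adjusted p of 0.337 without the former, and the adjusted p was 0.158 and 0.0810 without 6 h replicate 1 or 2. With a correction for GC content it was 0.90 on the log2 scale (adjusted p = 0.0239), under the fold threshold, while the rise at 2 h stayed at 3.0.

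Ier3 was higher at both times in KCl, from low counts. Its normalized counts were 20.4 and 13.5 in the 0 h libraries, 41.9 and 41.4 in the 2 h libraries, and 35.3 and 54.9 in the 6 h libraries. The libraries in KCl lay above both controls, and the 6 h libraries lay on either side of the 2 h libraries. Ier3 rose 2.46-fold at 2 h (log2 1.3, SE 0.52, adjusted p = 0.0455) and 2.66-fold at 6 h (1.41, SE 0.52, adjusted p = 0.0159). The values at 6 h and 2 h differed by 0.11 (SE 0.49, adjusted p = 0.877). Leaving out any one of the 6 libraries ended the call at 2 h, with adjusted p from 0.132 to 0.441. The call at 6 h ended without either 0 h library or either 6 h library, with adjusted p of 0.0631 and 0.231 without 0 h replicates 1 and 2, and of 0.0596 and 0.309 without 6 h replicates 1 and 2.

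Ier5 was not called in any of the 3 comparisons. Its normalized counts were 217 and 216 in the 0 h libraries, 285 and 275 in the 2 h libraries, and 305 and 309 in the 6 h libraries. The groups did not overlap, and the replicates lay close together. The difference from 0 h was 0.37 at 2 h (SE 0.18, adjusted p = 0.120) and 0.50 at 6 h (SE 0.18, adjusted p = 0.0131), the latter a 1.42-fold difference with a 95% interval from 1.11 to 1.81. Both intervals lie below a 2-fold change, the upper bound at 2 h being 1.65-fold.

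Ier5l, the IER5-like relative, went the other way at very low counts. Its estimated counts were 24 and 19 in the 0 h libraries, 13 and 11 in the 2 h libraries, and 4 and 3 in the 6 h libraries. The groups did not overlap, with the controls highest. Ier5l fell 4.97-fold from 0 h to 6 h (log2 -2.31, SE 0.88, adjusted p = 0.0207). The summed counts were 43 at 0 h (exact Poisson 95% interval 31.1 to 57.9, counting error only) and 7 at 6 h (2.81 to 14.4). The difference at 2 h was -0.61 (SE 0.75, adjusted p = 0.633), and that from 2 h to 6 h was -1.70 (SE 0.90, adjusted p = 0.112). Leaving out any one of the 6 libraries ended the call at 6 h, with adjusted p from 0.0603 to 0.236, and the log2 difference then ran from -2.53 to -2.09.

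**Figure D1:**
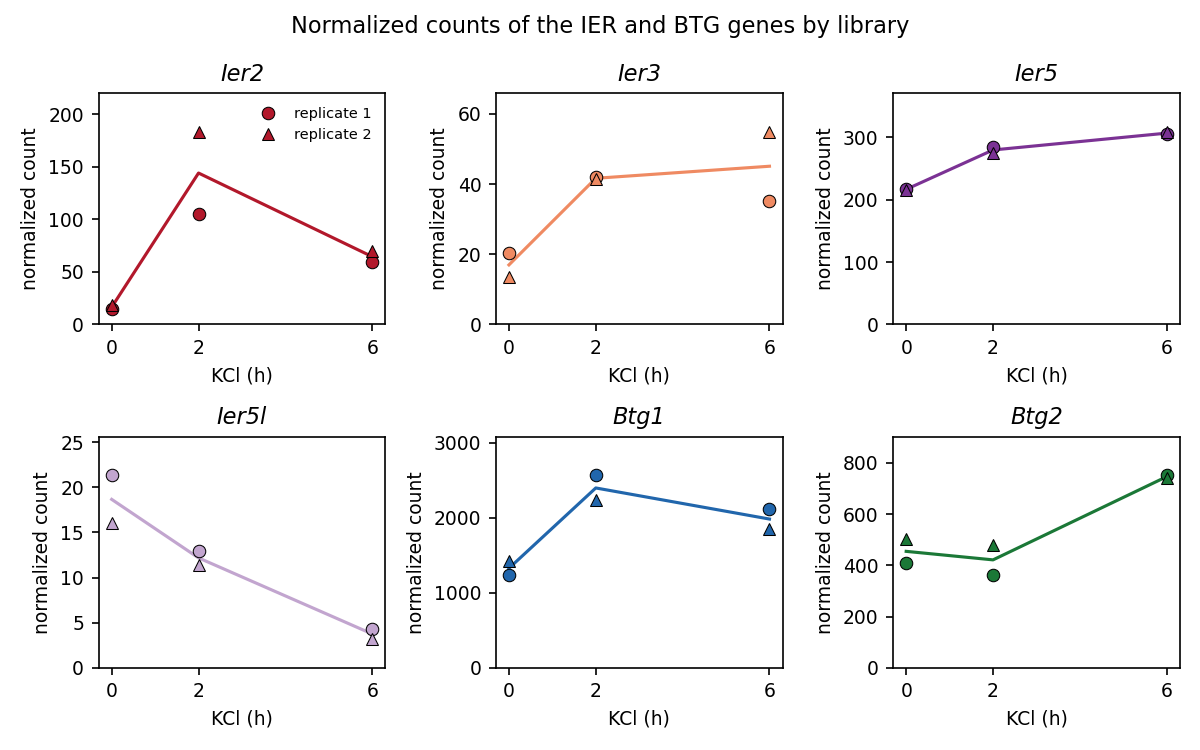
Normalized counts (vertical axes from 0, a scale for each gene) against hours in KCl, with a point for each library (circle replicate 1, triangle replicate 2) and lines through the means of 2. Of the times sampled, Ier2 is highest at 2 h and Btg2 at 6 h. Ier5l lies at 21.3 and 16.0 at 0 h and at 4.28 and 3.23 at 6 h.

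Btg1 was the most abundant member and was higher at 2 h. Its normalized counts were 1233 and 1418 in the 0 h libraries, 2561 and 2229 in the 2 h libraries, and 2113 and 1849 in the 6 h libraries. The groups did not overlap, and the 2 h libraries were highest. The difference from 0 h was 0.85 at 2 h (SE 0.15, adjusted p = 2.27e-07), or 1.81-fold with a 95% interval from 1.47 to 2.22, and 0.58 at 6 h (SE 0.15, adjusted p = 4.58e-04). Both were under the fold threshold, and so Btg1 was not called. The difference from 2 h to 6 h was -0.27 (SE 0.15, adjusted p = 0.127). It was -0.49 with the GC correction (adjusted p = 1.49e-04) and -0.35 with library totals (adjusted p = 0.0383), and between -0.38 and -0.16 when any one library was left out, with an adjusted p of 0.0153 without 2 h replicate 2.

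Btg2, its closest relative among the 6, was highest at 6 h. Its normalized counts were 407 and 502 in the 0 h libraries, 362 and 481 in the 2 h libraries, and 751 and 742 in the 6 h libraries. The 0 h and 2 h libraries overlapped, and both 6 h libraries lay above all others. At 2 h the difference from 0 h was -0.11 (SE 0.20, adjusted p = 0.779), with a 95% interval from 0.702-fold to 1.22-fold. At 6 h it was 0.71 above 0 h (SE 0.20, adjusted p = 0.00136) and 0.82 above 2 h (SE 0.20, adjusted p = 2.03e-04), or 1.64-fold and 1.77-fold, both under the fold threshold. Without replicate 2 at 2 h the latter was 1.06 and was called.

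Btg2 was lowest relative to Btg1 at 2 h. On the TPM scale, which corrects for transcript length, the ratio of Btg2 to Btg1 was 0.638 and 0.684 in the 0 h libraries, 0.274 and 0.417 in the 2 h libraries, and 0.688 and 0.777 in the 6 h libraries. Both 2 h libraries lay below all others. The mean log2 ratio differed by -0.967 between 2 h and 0 h and by 1.11 between 6 h and 2 h, each with a two-sided exact permutation p = 0.333, the smallest that 2 libraries against 2 allow. With the counts corrected for GC content the ratio was 0.293 and 0.346 at 2 h, against 0.633 to 0.841 in the other 4 libraries.

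**Figure D2:**
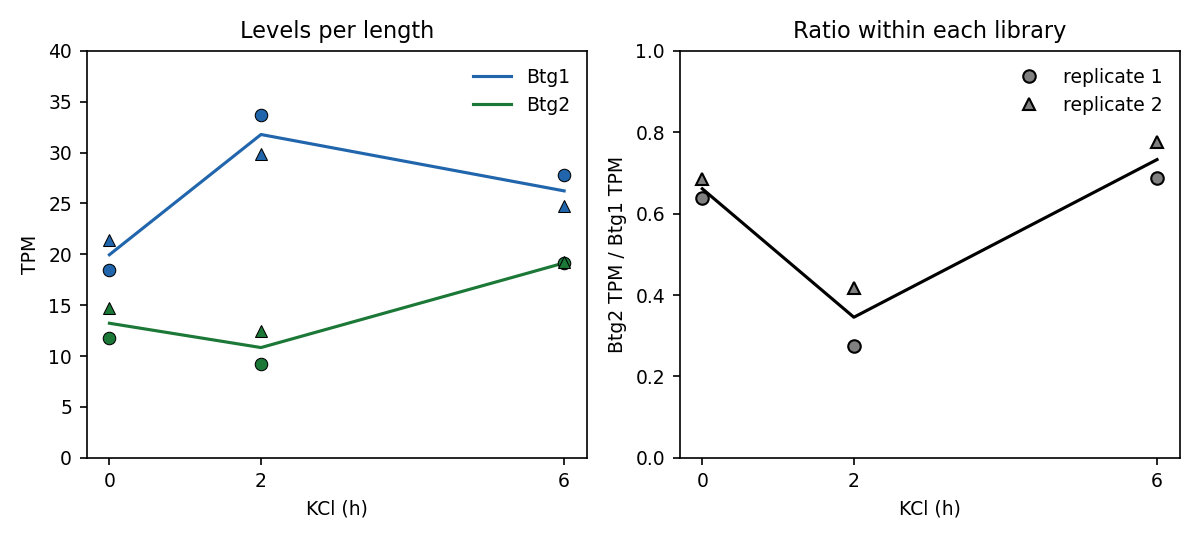
TPM of Btg1 and Btg2 (left) and the ratio of their TPM within each library (right) against hours in KCl, with circles for replicate 1, triangles for replicate 2 and lines through the means. The ratio is 0.274 and 0.417 at 2 h and at least 0.638 in the other libraries.

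The order of the levels differed between the times. At 0 h the mean TPM ran from Btg1 (19.96 ± 2.11, SD, n = 2) through Btg2 (13.2 ± 2.06), Ier5 (5.16 ± 0.0141), Ier3 (1.46 ± 0.403) and Ier2 (0.955 ± 0.191) to Ier5l (0.555 ± 0.106), with no overlap between neighbours. At 2 h Ier2 stood behind Btg1 and Btg2 with 7.45 ± 2.93 TPM, and its libraries overlapped those of both neighbours, Btg2 (10.8 ± 2.27) and Ier5 (5.89 ± 0.0707). At 6 h Ier3 (3.46 ± 1.09) and Ier2 (3.33 ± 0.438) overlapped and lay below Ier5 (6.46 ± 0.134). Btg1 was first and Ier5l last at all 3 times. Together the 6 genes reached a summed TPM of 41.3 ± 3.87 in the controls, which was 59.5 ± 2.36 after 2 h and 58.7 ± 0.431 after 6 h. Btg1 and Btg2 gave 80.2%, 71.7% and 77.3% of these sums.

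At 2 h against 0 h, 2 of the 6 members were called higher and 0 lower, where 3.62% of all genes tested were called higher and 5.94% lower. By the adjusted p alone, 3 were higher and 0 lower, against 12.3% and 14.2% of all genes. At 6 h against 0 h, 2 were called higher and 1 lower, against 9.1% and 10.2% of all genes, and all 6 passed the adjusted p, 5 higher and 1 lower, against 23.7% and 21.7% of all genes. With library totals only Ier2 (8.41e-04) and Ier5l (0.0114) kept an adjusted p under 0.05 in that comparison, the others being at 0.0554 (Btg1), 0.0580 (Ier3), 0.0599 (Btg2) and 0.275 (Ier5). At 6 h against 2 h, 0 were called higher and 1 lower, against 10.1% and 8.02%, and by the adjusted p alone 1 was higher and 1 lower, against 24.1% and 21.2%. The libraries of the 2 groups did not overlap for 5, 6 and 5 of the 6 members in the 3 comparisons, against 62.7%, 80.5% and 74.8% of all genes. The median log2 fold change of the members was 0.61, 0.65 and -0.08, against 0.0154, 0.000444 and -0.00527 over all genes. The comparisons share libraries and are not independent of each other.

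**Figure D3:**
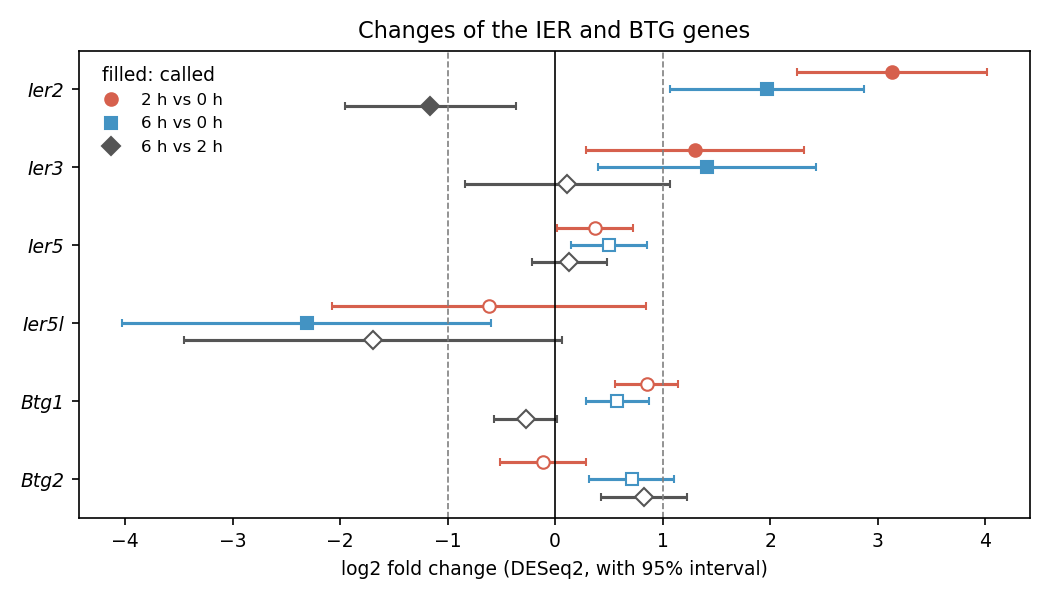
Log2 fold changes with 95% intervals (DESeq2) of the 6 genes in the 3 comparisons, with filled symbols for called changes and dashed lines at a 2-fold change. Ier2 lies farthest to the right at 2 h (3.13), Ier5l farthest to the left at 6 h (-2.31), and Btg1, Btg2 and Ier5 stay inside the dashed lines in their point values.

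Other BTG/TOB genes were measured beside Btg1 and Btg2. TOB proteins share the deadenylase-binding domain. Tob2 normalized counts were 267 and 329 in the 0 h libraries, 1181 and 1215 in the 2 h libraries, and 745 and 764 in the 6 h libraries. The groups did not overlap. Tob2 rose at 2 h (log2 2.01, SE 0.16, adjusted p = 2.56e-35) and at 6 h (1.34, SE 0.16, adjusted p = 5.18e-16). Btg3 normalized counts were 143 and 150 in the 0 h libraries, 284 and 308 in the 2 h libraries, and 733 and 687 in the 6 h libraries, and Btg3 rose at each step (1.01 at 2 h, 2.28 at 6 h, and 1.26 between them). The size of the Btg3 change from 0 h is uncertain, since its counts were not whole and its effective length was 677 to 745 bases at 0 h, 1039 to 1056 at 2 h and 979 to 1096 at 6 h. Its TPM was 13.5 and 15.7 in the 0 h libraries, 16.8 and 18.4 in the 2 h libraries, and 46.1 and 39.4 in the 6 h libraries. Btg3 was thus 1.2-fold above 0 h at 2 h and 2.92-fold at 6 h by mean TPM, against 2.02-fold and 4.85-fold by counts. Its call at 2 h was also lost with counts scaled to library totals. Tob1 was 0.84 above 0 h at 2 h (adjusted p = 2.64e-06) and 0.83 at 6 h (adjusted p = 1.58e-06), under the fold threshold. Btg4 was listed at 0 in 5 libraries and with 1 count in the other.

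The partners of the 2 families were counted from lists. Of 15 CCR4-NOT and poly(A) genes measured, 0 were called at 2 h, where 3 were higher and 3 lower by the adjusted p alone (12.3% and 14.2% of all genes). Cnot4, an E3 ubiquitin ligase of the complex, was called higher at 6 h over 0 h (log2 1.06, adjusted p = 7.46e-12), where 9.1% of all genes were. Over 2 h Cnot4 (1.22) and the regulatory subunit Cnot3 (1.47) were called higher, as were 10.1% of all genes. With library totals Cnot4 was 0.81 at 6 h over 0 h, which ended that call, and Cnot3 was called lower at 2 h (-1.03). By the adjusted p alone 9 were higher and 2 lower at 6 h over 0 h (23.7% and 21.7% of all genes), and 8 higher and 2 lower from 2 h to 6 h (24.1% and 21.2%). The median of the list was -0.05, 0.52 and 0.42 in the 3 comparisons. Of 13 PP2A subunits, 0 were called at 2 h and 3 were called higher at 6 h over 0 h (9.1% of all genes), the regulatory subunits Ppp2r2a (1.09), Ppp2r5e (1.09) and Ppp2r5a (1.00). All 3 calls were lost under that scaling too. By the adjusted p alone 8 of the 13 were higher at 2 h and 10 at 6 h over 0 h, and 0 lower, against 12.3% and 23.7% of all genes higher, and the list medians were 0.30 and 0.81. Of 13 HSF1 and chaperone genes, the co-chaperone Bag3 rose at 2 h (1.32, adjusted p = 0.00292) and at 6 h (1.74, adjusted p = 1.72e-05), and no other was called, where 3.62% and 9.1% of all genes were called higher. By the adjusted p alone 5 were higher at 2 h, where 12 of the 13 received one, and 6 at 6 h over 0 h (12.3% and 23.7% of all genes). In both comparisons 0 were lower (14.2% and 21.7% of all genes), and the list medians were 0.31 and 0.32.

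Of 18 p53 targets, 17 received an adjusted p. At 2 h 3 of them rose (3.62% of all genes), the stress regulator Sesn2 (1.21), the kinase Plk2 (1.15) and the cell-cycle inhibitor Cdkn1a (1.03), the last 2 named after their values were seen. With library totals Plk2 (0.98) and Cdkn1a (0.86) lost the call. At 6 h over 0 h 5 rose and 1 fell (9.1% and 10.2% of all genes), and by the adjusted p alone 11 were higher and 1 lower (23.7% and 21.7%). Eda2r (1.59), Pmaip1 (1.58), Sesn2 (1.48) and Plk3 (1.36) were among those that rose, and Bbc3, which encodes a pro-apoptotic BH3 protein, fell (-1.64). Over 2 h 2 rose (10.1% of all genes), Trp53inp1 (1.93) and Sesn1 (1.08), the latter under the fold threshold with library totals (0.998). Their differences from 0 h were -1.05 (adjusted p = 0.141) and -0.77 (adjusted p = 1.08e-08) at 2 h, and 0.89 and 0.30 at 6 h. By the adjusted p alone 5 of the list were higher and 1 lower at 2 h (12.3% and 14.2% of all genes). From 2 h to 6 h 10 were higher and 1 lower (24.1% and 21.2%). The median of the list was 0.06, 0.80 and 0.47. Of 12 other immediate-early genes measured for comparison, 10 rose at 2 h (3.62% of all genes), with a list median of 2.98. At 6 h over 0 h 8 were still called higher and 1, Jun, lower (9.1% and 10.2% of all genes), with a list median of 2.48. From 2 h to 6 h 7 fell (8.02% of all genes), with a list median of -1.27. The difference between these lists and the members was not tested.

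**Figure D4:**
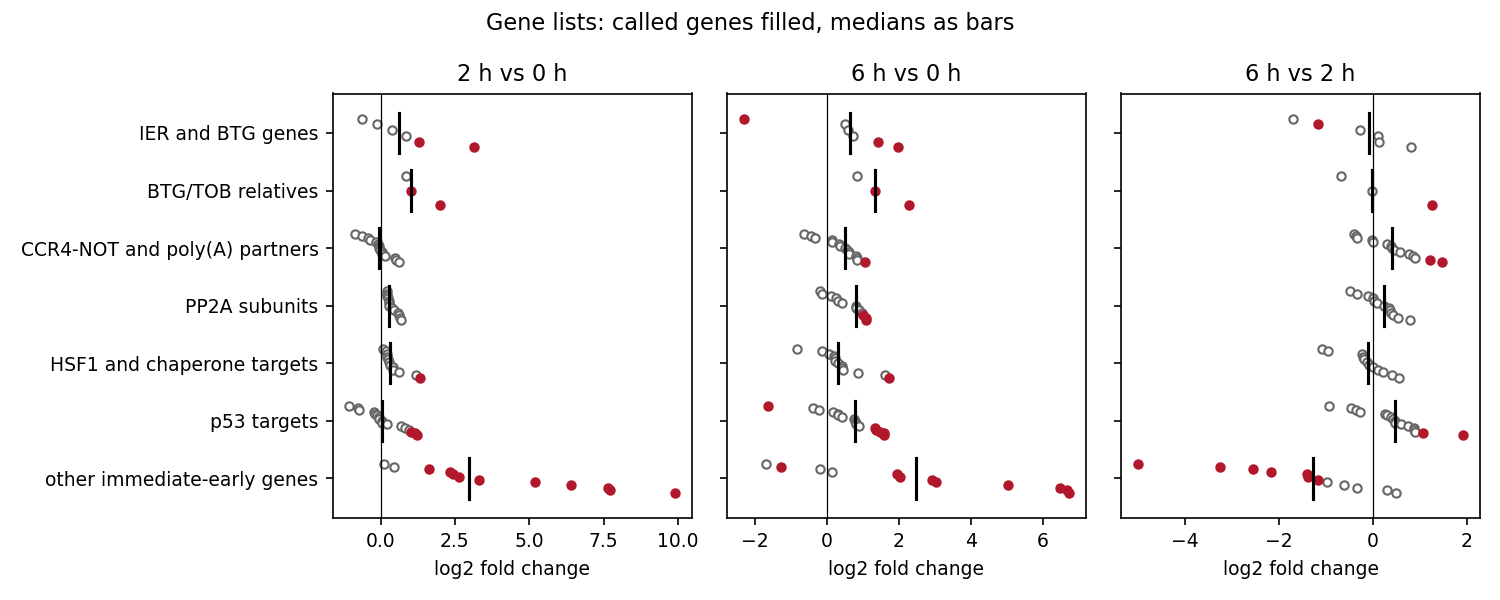
Log2 fold change of each gene (points, filled where called) in the 6 genes and in the 6 lists set beside them, a panel for each comparison with its own horizontal scale, with bars at the list medians. The medians of the other immediate-early genes lie at 2.98 at 2 h and -1.27 from 2 h to 6 h, and those of the 6 genes at 0.61 and -0.08.

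The genes whose profile over the 6 libraries was most like that of each member were sought among 11183 genes, by the root-mean-square difference of centred log2 normalized counts. Ier2 was nearest to Gm29084 (0.282), Ppp1r15a (0.292), which encodes a regulatory subunit of PP1, and the transcription factor Nfatc2 (0.293). Ier3 was nearest to the deubiquitinase Usp2 (0.173), Tfcp2l1 (0.219) and Maml1 (0.243). Ier5 was nearest to Ubqln2 (0.0239) and Ptpro (0.0311), Btg1 to Nkrf (0.0844), Sltm (0.0875) and Poc1b (0.0901), and Btg2 to Efhd2 (0.0746), Rhot2 (0.0786) and Asb6 (0.0791). Ier5l was nearest to Nat8f1 (0.139), Ikbkg (0.140) and Nceh1 (0.145).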

How the data were processed

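The authors trimmed paired-end reads of poly(A)-selected, stranded libraries and mapped them to mm10, and the submitters' processing notes name RSEM 1.3.0 and Bowtie2 2.2.9. The annotation release was not given in the sources used here. The deposited tables hold, for each gene, RSEM expected counts, effective lengths, TPM and FPKM, computed by the authors. The deposited FPKM values were not used. Effective lengths were used for Btg3 and for the ratio of Btg2 to Btg1 with GC-corrected counts. They were not compared between groups for the 6 members, since the deposited tables list 1 transcript for each.

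Expected counts were rounded and the 22515 genes with any count were fitted with DESeq2 1.42.0 in R 4.3.3, over all 6 libraries with 1 coefficient per group, median-of-ratios size factors, Wald tests and unshrunken log2 fold changes. A gene was called at a Benjamini-Hochberg adjusted p of at most 0.05, over all genes, and an absolute log2 fold change above 1, after the study's methods. The p-values rest on a spread between duplicates that DESeq2 estimated over all 3 groups and drew toward the trend of all genes. They do not measure the spread of a gene's own duplicates alone. The intervals of fold changes are Wald intervals that include this estimate. The Poisson intervals of summed counts cover counting error only, reads carrying no molecular identifiers. TPM set levels between genes. Alternatives used edgeR 4.0.16 (quasi-likelihood test), limma 3.58.1 on log2(TPM + 1) and log2(TPM + 0.1), TMM factors, library totals, a GC correction, a replicate block, a mean count of at least 10, only the 2 groups compared, a test against a fold change of 2, and each library left out. The fits were tested on simulated data. Gene structure and GC content came from GENCODE M21, whose transcript lengths equal those of the deposited tables for the members except Btg1 (5001 against 5010 bases), and promoters from RefSeq.

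The members and lists were chosen with earlier results of these data known. Named are the 6 members, at most 6 called genes per list by size, and the 3 nearest profiles per member, sought where the mean normalized count reached 100, of which 1 is not reported here. The list genes matched the tables except 1 of the CCR4-NOT list.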

Additional observations from a re-analysis of the deposited data

How the results depend on the processing

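The 17 alternatives gave 306 values for the 6 members in the 3 comparisons. Of these, 261 kept direction and side of the call, 39 lost the call, 3 gained it and 3 changed sign. The 261 include values that were uncalled in the main fit and stayed so, while all 39 losses fell on changes called in the main fit. The rise of Ier2 at 2 h was called in all 17 alternatives, and that at 6 h in 16, the exception being the test against a fold change of 2 (adjusted p = 0.401). The rise of Ier3 at 2 h was lost in 13 of 17 and at 6 h in 7, the fall of Ier5l at 6 h in 10 and the fall of Ier2 from 2 h to 6 h in 8. The adjusted p of Btg1 at 2 h and of Btg2 from 2 h to 6 h stayed at or under 0.05 in all 16 alternatives that test against no change. Over 0 h at 6 h it did so in 11 for Btg1 and 10 for Btg2 (without one library, up to 0.0797 and 0.0970) and in 9 for Ier5.

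At 2 h, 1 member was called in place of 2 with library totals, with only the 2 groups compared, with both TPM scales in limma, with the test against a fold change of 2 and without any one library (1 to 1). At 6 h over 0 h, 1 was called in place of 3 with log2(TPM + 1), 0 with the test against a fold change of 2, and 1 to 2 without one library. From 2 h to 6 h, 0 were called with the GC correction, log2(TPM + 1) or the test against a fold change of 2, 2 with edgeR, which added Ier5l (adjusted p = 0.0408), and 0 to 1 without one library. With log2(TPM + 0.1) the count was 1 again, Ier5l (adjusted p = 0.0475) in place of Ier2 (0.0715), and without 2 h replicate 2 it was Btg2 in place of Ier2. The early class then held 0 members with the GC correction or the fold test, and 0 to 1 without one library. The sign changed for Btg2 at 2 h without 0 h replicate 2 (0.057) or 2 h replicate 1 (0.0685; range without one library -0.35 to 0.0685) and for Ier3 from 2 h to 6 h without 6 h replicate 2 (-0.24; range -0.24 to 0.40). A lone sample was taken to vary like the other groups.

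The samples share a replicate number only. With the replicate block 1 member was called at 2 h in place of 2, Ier3 being lost (adjusted p = 0.105), and the adjusted p of Ier5l at 6 h was 0.0508. With the block and the GC correction 1 was called at 2 h, 0 from 2 h to 6 h and 0 in the early class. Same-numbered samples deviated together with r = 0.281, -0.00226 and 0.152 in the 3 comparisons over 12290 genes.

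With library totals the median of all genes was -0.154 in place of 0.0154 at 2 h and -0.247 in place of 0.000444 at 6 h. The share of calls that were higher was then 27.3% in place of 37.8% at 2 h and 28.7% in place of 47.2% at 6 h, with 1032 genes called higher at 6 h in place of 1572. The lists then gave 1 call for the BTG/TOB genes at 2 h, 1 and 0 for the CCR4-NOT genes at 2 h and 6 h, 0 for PP2A at 6 h, and 1 for the p53 targets at 2 h and 1 from 2 h to 6 h. The test against a fold change of 2 called 178 genes higher and 225 lower at 2 h, 446 and 414 at 6 h over 0 h, and 342 and 198 from 2 h to 6 h. The cause of these shifts was not tested. A planned test of effective lengths was not run, since each member has 1 transcript. Counts of 3 to 24 limit Ier5l, and 16 to 51 limit Ier3.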

Other observations

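The culture also held RNA of dividing cells, whose exit from the cycle BTG proteins are known to favour. The 6 markers of dividing cells summed to 264 to 269 TPM at 0 h, 269 to 291 at 2 h and 210 to 225 at 6 h, and 0 of them was called in any of the 3 comparisons (DESeq2). By the adjusted p alone 2 were higher at 2 h (12.3% of all genes), 2 were lower at 6 h over 0 h (21.7%), and 3 were lower from 2 h to 6 h (21.2%). The 10 vascular and fibroblast markers summed to 14.3 to 21.1 TPM over all libraries. Of these 10, 8 had a mean under 1 TPM, and 9 received an adjusted p. Pecam1 was called higher at 2 h (3.62% of all genes). At 6 h over 0 h Pecam1, Rgs5 and Col1a2 were called higher and Pdgfrb lower (9.1% and 10.2% of all genes). Oligodendrocyte lineage markers summed to 120 to 141 TPM at 0 h, 95.4 to 112 in the 2 h libraries and 118 to 128 in the 6 h libraries. Of the microglia markers P2ry12 was called higher at 6 h over 0 h and over 2 h (9.1% and 10.1% of all genes), with a mean normalized count of 7.34.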
